A study of Arabidopsis with 12 samples.

Results

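BHLH38, BHLH39, BHLH100, BHLH101, IMA1, IMA2, IMA3, FRO2, IRT1 and FER1 are 10 Arabidopsis genes of the iron response, chosen by locus out of the 32833 genes in the RNA-seq table, with the transcripts of each gene summed. They were followed in seedlings of the bzip59 insertion line SALK_024459 and of the wild type Col-0, all grown for 7 days in continuous white light. Part of each genotype then had 2 h of shade, with a red to far-red ratio of 0.65, and the rest stayed in white light. This gave 4 groups of 3 libraries, named here bzip59 shade, bzip59 white light, Col-0 shade and Col-0 white light. The design addresses what bZIP59, a transcription factor of the bZIP family, contributes to the transcriptional response to shade, and bzip59 is represented by a single insertion line.

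Plants take up iron through the root epidermis, where a reductase converts ferric to ferrous iron and a transporter carries the ferrous form into the cell. When iron is short, the group Ib bHLH transcription factors pair with the regulator FIT and switch on the reductase and transporter genes, and the small IMA peptides promote the same response by hindering the ubiquitin ligase BTS. Ferritins do the opposite job: they store iron in plastids, and FER1 transcripts rise when iron is plentiful.

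In Col-0, 1 of the 10 genes was called under the test used, near the share of 9.92% among all tested genes. It was BHLH101, which was lower after 2 h of shade than in white light. This call was lost when certain single Col-0 libraries were left out or when the 2 Col-0 groups alone were fitted. IMA3 had the largest estimated decrease of the 10 in Col-0 but just missed the threshold, and the iron uptake genes FRO2 and IRT1 and the ferritin FER1 did not pass it. None of the 10 passed it for shade in bzip59, or for bzip59 against Col-0 in either light. Among 50 further iron genes, the chloroplast ferric reductase gene FRO7, the nicotianamine synthase gene NAS1 and the regulator gene BHLH34 fell in shade in both genotypes.

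All values are TPM, a unit of transcript abundance scaled for transcript length and for the total of each library, so levels of different genes can be set side by side. Tests were made with limma on log2(TPM + 1) over the 19693 genes whose mean level reached 1 TPM, all 10 genes among them. Calls required a p under 0.05 after Benjamini-Hochberg adjustment over these 19693 genes. A log2 change here is on the log2(TPM + 1) scale and understates the change of genes with low values. The labels do not say whether libraries came from separate cultures, so p-values measure only the spread between these libraries, which may be technical.

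The targeted gene, bZIP59, ran from 3.12 to 8.32 TPM over the 6 bzip59 libraries and from 17.49 to 26.33 TPM over the 6 Col-0 libraries, so residual transcript was measured in the mutant. In each group 1 library was the highest for many of the 10 genes. These were bzip59 shade 2 (5 genes), bzip59 white light 2 (6), Col-0 shade 1 (8) and Col-0 white light 2 (6). At the other end, bzip59 white light 1 was the lowest of its group for 6 and Col-0 shade 2 for 7. The median log2 change of all tested genes was 0.114 for shade in bzip59, -0.011 for shade in Col-0, -0.157 for the mutant against Col-0 under white light, -0.003 for the mutant against Col-0 under shade and 0.153 for the difference between the 2 shade effects, and the changes below are to be read against these shifts. Root marker levels overlapped between shade and white light in each genotype: 10 root genes summed to 83.95 to 106 TPM in bzip59 shade, 72.76 to 118.8 TPM in bzip59 white light, 81.74 to 138 TPM in Col-0 shade and 79.06 to 130.1 TPM in Col-0 white light, with none at 0 in any library. In whole seedlings, fewer cells of a type and less RNA per cell cannot be told apart.

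All 10 genes were above 0 in every library. FER1 was the most abundant in each group, at 170.1 ± 7.69 TPM in bzip59 shade, 240.2 ± 59.9 TPM in bzip59 white light, 199.1 ± 52.9 TPM in Col-0 shade and 174.6 ± 27.1 TPM in Col-0 white light (SD, n = 3 each). Its range did not overlap that of the gene next in order, IRT1, in any group. IRT1 had group means of 19.97 to 28.53 TPM, and its range overlapped that of the gene after it in both white-light groups and in neither shade group. The 3 IMA genes followed with group means between 5.61 and 16.92 TPM, FRO2 lay between 4.35 and 5.32 TPM, and the 4 bHLH genes lay between 1.32 and 4.65 TPM. Neighbours in this order mostly overlapped: in Col-0 white light FRO2 and the 4 bHLH genes could not be ranked beyond their spread.

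**Figure D1:**
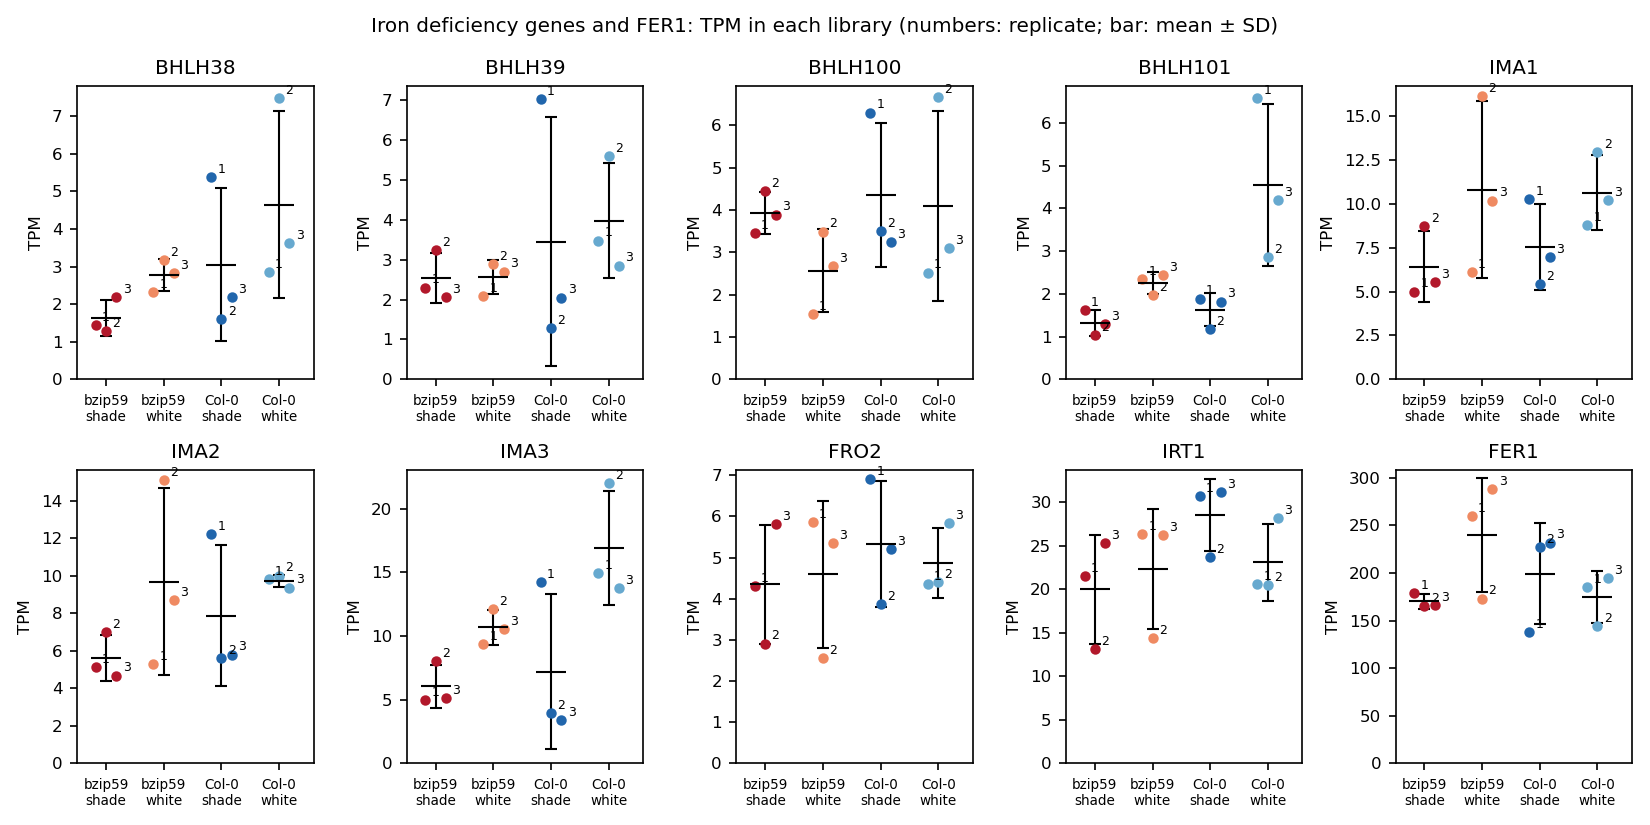
TPM of the 10 genes in each library. Each panel is 1 gene on its own linear axis starting at 0, points are libraries with their replicate number, and the bars give the mean ± SD of 3 libraries. In the BHLH101 panel the 3 Col-0 shade points, at 1.18 to 1.89 TPM, lie below all 3 Col-0 white light points, at 2.86 to 6.59 TPM, while FRO2 and IRT1 overlap across all groups.

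BHLH101 (AT5G04150), one of the group Ib bHLH transcription factors, had 1.89, 1.18 and 1.82 TPM in shaded Col-0, against 6.59, 2.86 and 4.19 TPM in Col-0 white light. Every Col-0 shade library lay below every Col-0 white light library. The gene fell by 1.03 on the log2 scale (SE 0.24, 95% interval -1.55 to -0.51, limma adjusted p = 0.0169). BHLH101 was thus 1 of 10 members called for shade in Col-0, beside 9.92% of all tested genes called in either direction and 6.5% called as falling, so the share among the 10 was near the background. The call was lost when any of Col-0 white light 1 (adjusted p = 0.0604), Col-0 shade 2 (0.0746) and Col-0 shade 3 (0.05) was left out, or when the 2 Col-0 groups alone were fitted (0.0868).

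In the mutant, BHLH101 had 1.63, 1.04 and 1.29 TPM in bzip59 shade, against 2.35, 1.97 and 2.45 TPM in bzip59 white light. The groups again did not overlap, shade being the lower, with a log2 change of -0.49 (95% interval -1.01 to 0.02, limma adjusted p = 0.207). The bzip59 white light libraries also lay below the 3 Col-0 white light libraries, with a difference of -0.72 (95% interval -1.23 to -0.20, unadjusted p = 0.0111, limma adjusted p = 0.251). The test of whether the shade effect differed between genotypes gave a difference of 0.54 (95% interval -0.20 to 1.27, limma adjusted p = 0.64), so an unequal response was not shown. The first annotated transcript of BHLH101 held 57.2% and the other 42.8% of the gene's TPM, and each was listed at 0 in 2 libraries, so only the sum was used.

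BHLH38 (AT3G56970) and BHLH39 (AT3G56980), which lie next to each other on chromosome 3 and encode close relatives, are further partners of FIT. BHLH38 had 1.44, 1.29 and 2.19 TPM in bzip59 shade, against 2.33, 3.17 and 2.83 TPM in bzip59 white light. It had 5.37, 1.61 and 2.18 TPM in shaded Col-0, against 2.85, 7.48 and 3.62 TPM in Col-0 white light. The bzip59 shade libraries all lay below the bzip59 white light ones, whereas in Col-0 a single high shade library, Col-0 shade 1, made the groups overlap. The log2 changes were -0.53 (95% interval -1.28 to 0.23) for shade in bzip59 and -0.50 (95% interval -1.26 to 0.25) for shade in Col-0, and neither passed the test (limma adjusted p = 0.352 in bzip59 and 0.441 in Col-0). Leaving out single libraries moved the estimate to between -0.67 and -0.43 in bzip59 and to between -0.89 (without Col-0 shade 1) and -0.17 (without Col-0 white light 2) in Col-0.

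BHLH39 had 2.30, 3.24 and 2.06 TPM in bzip59 shade, against 2.08, 2.89 and 2.70 TPM in bzip59 white light. It had 7.02, 1.29 and 2.05 TPM in shaded Col-0, against 3.48, 5.60 and 2.85 TPM in Col-0 white light. Both pairs of groups overlapped, and Col-0 shade held both the highest and the lowest of the 12 libraries. The log2 changes for shade were -0.02 (95% interval -0.86 to 0.82) in bzip59 and -0.34 (95% interval -1.18 to 0.50) in Col-0. Both changed sign with single libraries: the Col-0 estimate was -0.87 without Col-0 shade 1 and 0.03 without Col-0 shade 2, and that of bzip59 ran from -0.16 without bzip59 shade 2 to 0.08 without bzip59 shade 3.

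BHLH100 (AT2G41240), the remaining group Ib gene, had 3.45, 4.45 and 3.89 TPM in bzip59 shade, against 1.54, 3.49 and 2.67 TPM in bzip59 white light. It had 6.30, 3.51 and 3.24 TPM in shaded Col-0, against 2.52, 6.67 and 3.10 TPM in Col-0 white light. It was the only one of the 10 genes with a positive estimate for shade in bzip59, 0.50 (95% interval -0.18 to 1.19, limma adjusted p = 0.327), and its groups overlapped by 1 library. In Col-0 the estimate was 0.11 (95% interval -0.57 to 0.80), and it took a negative sign, -0.13, once Col-0 shade 1 was left out. The 4 bHLH genes summed to 8.82, 10.02 and 9.43 TPM in bzip59 shade, 8.3, 11.52 and 10.65 TPM in bzip59 white light, 20.58, 7.59 and 9.29 TPM in Col-0 shade and 15.44, 22.61 and 13.76 TPM in Col-0 white light. The bzip59 libraries thus stayed within 8.3 to 11.52 TPM, below all 3 Col-0 white light libraries. Col-0 shade 2 and 3, at 7.59 and 9.29 TPM, lay below those 3 as well, and Col-0 shade 1, at 20.58 TPM, did not. The sum was not tested, and none of the 4 genes was called for bzip59 against Col-0 in either light. In white light 15.6% of all tested genes had every bzip59 library below every Col-0 library.

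IMA3 (AT2G30766) encodes a short iron deficiency peptide. It had 14.26, 3.92 and 3.43 TPM in shaded Col-0, against 14.95, 22.01 and 13.79 TPM in Col-0 white light. Col-0 shade 1 lay within the white light range and the other 2 shade libraries lay far below it. The log2 change was -1.34 (SE 0.39, 95% interval -2.19 to -0.49, unadjusted p = 0.00508), and its limma adjusted p of 0.0509 missed the threshold. Leaving out Col-0 shade 1 gave -1.91 with an adjusted p of 0.000547, and over the 24 alternatives the gene was called in 6, with adjusted p from 0.000547 to 0.211.

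In the mutant, IMA3 had 4.98, 8.02 and 5.14 TPM in bzip59 shade, against 9.36, 12.11 and 10.57 TPM in bzip59 white light. The shade libraries all lay below the white light libraries. The log2 change was -0.75 (95% interval -1.60 to 0.10, limma adjusted p = 0.243). It was called in 2 alternatives, without Col-0 shade 1 (-0.75, adjusted p = 0.0422, a library that enters this comparison only through the spread shared by all groups) and without both Col-0 shade 1 and bzip59 shade 2 (-0.94, adjusted p = 0.024). The bzip59 white light libraries also lay below those of Col-0 white light, with a difference of -0.60 (95% interval -1.45 to 0.26, limma adjusted p = 0.441), while in shade the difference was -0.002 (95% interval -0.85 to 0.85).

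IMA1 (AT1G47400) and IMA2 (AT1G47395) encode related peptides from neighbouring loci on chromosome 1. The deposited description of IMA1 names the IMA2 locus as its closest match, so reads of the pair may have been split between them. IMA1 had 5.0, 8.72 and 5.56 TPM in bzip59 shade, 6.10, 16.14 and 10.19 TPM in bzip59 white light, 10.26, 5.43 and 6.99 TPM in Col-0 shade and 8.78, 12.95 and 10.23 TPM in Col-0 white light. IMA2 had 5.14, 7.01 and 4.68 TPM in bzip59 shade, 5.27, 15.09 and 8.69 TPM in bzip59 white light, 12.23, 5.59 and 5.80 TPM in Col-0 shade and 9.81, 10.01 and 9.37 TPM in Col-0 white light. Shade and white light overlapped for both genes in both genotypes.

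The estimates for shade were negative throughout for this pair. For IMA1 they were -0.61 (95% interval -1.30 to 0.08, limma adjusted p = 0.238) in bzip59 and -0.47 (95% interval -1.15 to 0.22, limma adjusted p = 0.427) in Col-0. For IMA2 they were -0.60 (95% interval -1.32 to 0.12, limma adjusted p = 0.265) in bzip59 and -0.35 (95% interval -1.07 to 0.37, limma adjusted p = 0.588) in Col-0. The sizes rested on single libraries. In bzip59 IMA1 had -0.93 without bzip59 white light 1 and -0.30 without bzip59 white light 2, and IMA2 had -0.93 and -0.25 without the same libraries. In Col-0 IMA1 had -0.69 without Col-0 shade 1 and -0.28 without Col-0 shade 2, and IMA2 had -0.68 and -0.18 without the same libraries. The 3 IMA genes together summed to 18.08 ± 4.91 TPM in bzip59 shade and 31.17 ± 11.4 TPM in bzip59 white light, and to 22.64 ± 12.2 TPM in Col-0 shade and 37.3 ± 6.64 TPM in Col-0 white light (SD, n = 3 each). In both genotypes the mean was lower in shade while the ranges overlapped, and in Col-0 shade 1 the sum, 36.75 TPM, exceeded those of Col-0 white light 1 and 3, 33.54 and 33.39 TPM.

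FRO2 (AT1G01580), the ferric chelate reductase of the root surface, had 4.31, 2.91 and 5.82 TPM in bzip59 shade, against 5.87, 2.56 and 5.35 TPM in bzip59 white light. It had 6.91, 3.86 and 5.20 TPM in shaded Col-0, against 4.36, 4.40 and 5.84 TPM in Col-0 white light. All 4 groups overlapped, and the log2 changes for shade were -0.04 (95% interval -0.66 to 0.57) in bzip59 and 0.09 (95% interval -0.53 to 0.71) in Col-0. Both estimates changed sign when single libraries were left out, ranging from -0.34 to 0.16 in bzip59 and from -0.09 to 0.26 in Col-0. Changes as large as the ends of these intervals remain possible, so equal levels in shade and white light were not shown.

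IRT1 (AT4G19690), the ferrous iron transporter of the root epidermis, had 21.48, 13.08 and 25.34 TPM in bzip59 shade, against 26.35, 14.37 and 26.20 TPM in bzip59 white light. It had 30.71, 23.72 and 31.17 TPM in shaded Col-0, against 20.61, 20.46 and 28.13 TPM in Col-0 white light. The groups overlapped in both genotypes, with log2 changes for shade of -0.15 (95% interval -0.74 to 0.43) in bzip59 and 0.30 (95% interval -0.29 to 0.89) in Col-0. With single libraries left out the estimate ran from -0.43 to 0.11 in bzip59, a change of sign, and from 0.23 to 0.45 in Col-0. In shade, bzip59 was lower than Col-0 by an estimate of -0.53 (95% interval -1.12 to 0.05, unadjusted p = 0.0713, limma adjusted p = 1.0), and the 2 groups overlapped because bzip59 shade 3 exceeded Col-0 shade 2. In all 4 groups the library lowest in IRT1 was also the lowest in the sum of the 10 root genes, of which CASP1 was the largest part. These were bzip59 shade 2 (83.95 TPM in root markers), bzip59 white light 2 (72.76 TPM), Col-0 shade 2 (81.74 TPM) and Col-0 white light 2 (79.06 TPM). Single root genes did not all go with the sum. In bzip59 shade 2 MYB36, SMB and PLT1 were the highest of their group. The same held for WER in bzip59 white light 2 and for SCR and PLT1 in Col-0 white light 2. In Col-0 shade 2 every root gene was the lowest of its group. In Col-0 white light the lowest IRT1 values, 20.46 and 20.61 TPM, hardly differed. The highest libraries matched in the white light groups only. In bzip59 shade and Col-0 shade IRT1 was highest in library 3 and the root markers in library 1 (106 and 138 TPM). The part of root RNA content in the IRT1 values was not tested.

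FER1 (AT5G01600), the plastid ferritin, had 178.93, 165.22 and 166.03 TPM in bzip59 shade, against 259.71, 173.02 and 287.87 TPM in bzip59 white light. It had 138.12, 227.47 and 231.85 TPM in shaded Col-0, against 185.14, 143.75 and 194.79 TPM in Col-0 white light. The estimates had opposite signs, -0.46 (95% interval -0.96 to 0.03, limma adjusted p = 0.214) for shade in bzip59 and 0.16 (95% interval -0.33 to 0.66, limma adjusted p = 0.737) for shade in Col-0, and both pairs of groups overlapped. The difference between the 2 shade effects was -0.63 (95% interval -1.33 to 0.07, unadjusted p = 0.0745, limma adjusted p = 0.619), so it was not called. Under white light FER1 was also the only one of the 10 with a positive estimate for the mutant against Col-0, 0.44 (95% interval -0.06 to 0.93, limma adjusted p = 0.36).

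The other ferritin genes were measured as well. FER3 and FER4, which also encode plastid ferritins, lay between 64.15 and 98.14 TPM and between 36.57 and 66.94 TPM over the 12 libraries, and FER2, known for its role in seeds, lay between 0.69 and 3.40 TPM. None of the 3 was called in any comparison of the main fit. With a trend over gene length removed, FER2 was called for shade in bzip59 (-0.79, limma adjusted p = 0.0469). It was not called there with TMM factors (-0.81, 0.0501) or quantile normalization (-0.78, 0.0635). For shade in bzip59 their estimates were -0.70 for FER2 (95% interval -1.22 to -0.19, limma adjusted p = 0.0836), -0.24 for FER3 (95% interval -0.59 to 0.10) and -0.13 for FER4 (95% interval -0.53 to 0.26). For shade in Col-0 they were 0.09 for FER2 (95% interval -0.43 to 0.61), -0.04 for FER3 (95% interval -0.38 to 0.30) and -0.02 for FER4 (95% interval -0.42 to 0.37). Beside the FER2 values stand those of 9 seed storage genes, which summed to 2.39 to 79.16 TPM in bzip59 shade, 31.72 to 190.1 TPM in bzip59 white light, 2.62 to 5.22 TPM in Col-0 shade and 7.13 to 9.57 TPM in Col-0 white light, with 6 of the 9 at 0 in some library. Their part in the FER2 result was not tested.

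**Figure D2:**
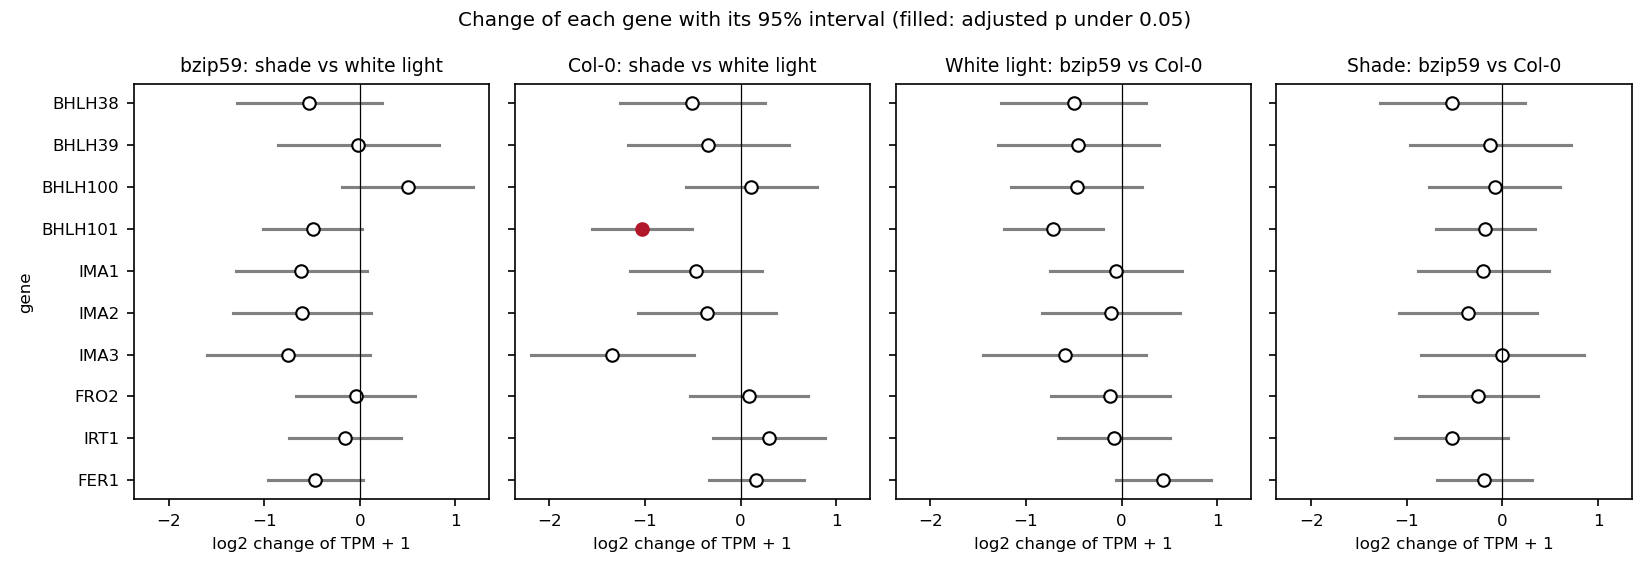
Log2 change of TPM + 1 for each of the 10 genes in 4 comparisons, with 95% intervals from the limma fit, where a filled point marks an adjusted p under 0.05. The single filled point is BHLH101 for shade in Col-0, at -1.03, and the IMA3 interval in the same panel, -2.19 to -0.49, also lies below 0 without the gene being called.

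Counted over the 10 genes, 6 of the 10 estimates were negative for shade in Col-0, with a median of -0.35, beside -0.011 over all tested genes. For shade in bzip59 limma called 0 of 10, beside 10.2% of all tested genes. An unadjusted p under 0.05 was found for 0 of the 10, beside 26.6% of all tested genes. There 9 of 10 estimates were negative, with a median of -0.48 beside 0.114 over all tested genes. BHLH38, BHLH101 and IMA3, 3 of the 10, had shade libraries all below the white light libraries in bzip59, beside 10.5% of all tested genes. In Col-0 the same held for BHLH101 alone, 1 of 10, beside 15.8% of all tested genes. Over all genes shade gave 1278 that rose and 729 that fell in bzip59, a split that became 893 and 1149 with TMM scaling factors; the split for Col-0 was 674 and 1280. The number of negative estimates among the 10 was 9 for bzip59 and 6 for Col-0 with TMM factors or quantile normalization too, and 8 and 6 with the length trend removed. Without Col-0 shade 1 and bzip59 shade 2 it was 7 for bzip59 and 8 for Col-0, where the median was -0.68, and without the white light libraries numbered 2 the Col-0 median was -0.14.

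The same 10 genes were compared between genotypes within each light condition, which asks whether bzip59 seedlings differed from Col-0 seedlings apart from the shade response. In white light limma called 0 of 10, beside 0.0254% of all tested genes. BHLH101 was the only one with an unadjusted p under 0.05, beside 15.5% of all tested genes. In shade limma called 0 of 10, beside 0.0406% of all tested genes. There 0 of the 10 had an unadjusted p under 0.05, beside 2.71% of all tested genes. Estimates for bzip59 against Col-0 were negative for 9 of 10 genes in white light, with a median of -0.29 beside -0.157 over all genes. With TMM factors or quantile normalization this became 5 of 10, since the estimates for IMA1, IMA2, FRO2 and IRT1 changed sign. In shade they were negative for 10 of 10, with a median of -0.19 beside -0.003 over all genes, and for 6 of 10 once Col-0 shade 1 and bzip59 shade 2 were left out.

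BHLH101 and IMA3, 2 of the 10, had bzip59 libraries all below the Col-0 libraries in white light, beside 15.6% of all tested genes, and none of the 10 did so in shade, beside 5.19% of all tested genes. For the difference between the shade effects limma called 0 of 10 genes and 0% of all tested genes, with 0 of the 10 and 8.01% of all genes at an unadjusted p under 0.05. The number of libraries limits these comparisons: the median 95% interval over all tested genes reached 0.41 to either side for a comparison of 2 groups and 0.58 for the difference between the shade effects. Read depth cannot be recovered from TPM and is unknown here.

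Libraries of 1 group differed in a way that involved several of the 10 genes at once. Col-0 shade 1 was the highest of its group for 8 of the 10, the exceptions being IRT1 and FER1, and it deviated from its group mean by 1.14 for IMA3, 1.07 for BHLH39, 0.76 for BHLH38 and -0.49 for FER1 on the log2 scale. Both white light libraries numbered 2 were the highest of their groups for BHLH38, BHLH39, BHLH100, IMA1, IMA2 and IMA3 and the lowest for BHLH101, IRT1 and FER1. In bzip59 shade 2 the 3 IMA genes, BHLH39 and BHLH100 were highest and the other 5 lowest. The lowest of its group for BHLH38, BHLH39, BHLH100 and the 3 IMA genes was bzip59 white light 1. Col-0 shade 2 was the lowest for BHLH38, BHLH39, BHLH101, IMA1, IMA2, FRO2 and IRT1. In all 4 groups the library with the highest IMA3 was the one with the lowest FER1, although in bzip59 shade the FER1 values of libraries 2 and 3, 165.22 and 166.03 TPM, hardly differed.

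For bzip59 white light 1 and 2 and for Col-0 shade 1, values beyond these genes also stood apart. The TMM scaling factor, which was near 1 in most libraries, was 0.8296 in bzip59 white light 2 and 1.118 in Col-0 shade 1, the lowest and the highest of the 12. In bzip59 white light 2 the 2002 tested genes shorter than 1000 bases deviated from their group means by a median of 0.19 and the 5957 longer than 3000 bases by -0.31. There IMA1 (779 bases) and IMA2 (833 bases) deviated by 0.63 and 0.70, and FRO2 (4088 bases) by -0.59. In bzip59 white light 1 the signs were reversed, with -0.08 for the shorter genes and 0.24 for the longer ones. IMA1, IMA2 and FRO2 deviated there by -0.64, -0.66 and 0.35. In Col-0 shade 1 genes shorter than 1000 bases deviated by a median of 0 and those longer than 3000 bases by 0.17, next to the 1.14 of IMA3 (2898 bases). The TMM factors of bzip59 shade 2 and Col-0 white light 2, 1.049 and 1.064, did not stand apart in this way. A sum of 6 root hair genes was low in Col-0 white light 2, at 7.59 TPM, with EXPA7 at 0. Col-0 white light 1 and 3 had 23.54 and 29.04 TPM. The same sum was the highest of its group in Col-0 shade 1, at 38.73 TPM, and ran from 22.69 to 25.69 TPM in bzip59 shade. The part of these library properties in the values of the 10 genes was not tested beyond the alternatives given here.

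**Figure D3:**
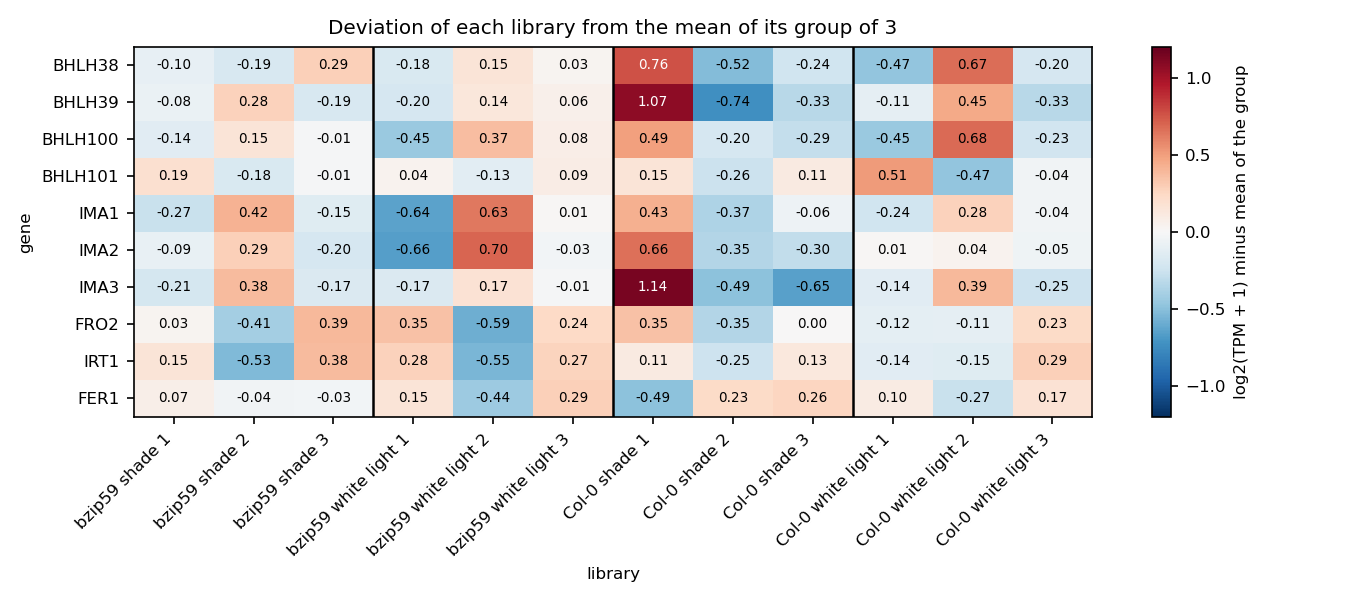
Deviation of each library from the mean of its group, in log2(TPM + 1), for the 10 genes (lines) and 12 libraries (columns, grouped by genotype and light). In Col-0 shade 1 IMA3 stands at 1.14 and BHLH39 at 1.07 while FER1 is at -0.49, and in bzip59 white light 2 IMA2 stands at 0.70 while FRO2 is at -0.59.

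Likeness of the profiles was measured as the root mean square difference of log2(TPM + 1) over the 12 libraries after each gene was centred on its own mean, where 0 would mean identical shapes. Among the 45 pairs of the 10 genes, FRO2 and IRT1, the reductase and the transporter, were the most alike at 0.146. IMA1 and IMA2, the neighbouring peptide genes, followed at 0.169, and BHLH38 and BHLH39 stood at 0.338. IMA3 and FER1 were the least alike at 0.892. The 12 libraries include the groups and the libraries that stood apart, and the measure favours genes that vary little.

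The profile of FER1, whose own root mean square deviation was 0.314, was closest to that of FER4, another plastid ferritin, at 0.197, out of all tested genes outside the 10. CYP706A7, a cytochrome P450, followed at 0.199, then AT5G38700 at 0.2, the sorbitol dehydrogenase gene AT5G51970 at 0.211 and AT1G73655, annotated as a peptidylprolyl isomerase, at 0.213. IMA1, with a deviation of 0.455, was closest to AT1G48330 at 0.185, followed by AT4G16447, ABCI16 and AT3G27880 and by EPFL9, the peptide known as stomagen that promotes stomata, at 0.228. BHLH39, with a deviation of 0.477, was closest to UGT76E3 at 0.244, followed by AT2G15440, MAM3, TCP4 and AT1G49740 at up to 0.272. MAM3 encodes a methylthioalkylmalate synthase of glucosinolate synthesis and TCP4 a transcription factor of leaf growth.

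The 10 genes were set beside 50 other genes of iron regulation, uptake, transport and storage, of which 44 were tested. In shade, bzip59 had 3 that rose and 5 that fell, and Col-0 had 1 that rose and 8 that fell. This was 18.2% of the 44 in bzip59 and 20.5% in Col-0, beside 10.2% of all tested genes in bzip59 and 9.92% in Col-0. The list was chosen with earlier results of these data known, so its share is no independent result. With single libraries left out, the number called was 3 to 9 in bzip59 and 4 to 14 in Col-0. By direction, 6.49% of all tested genes rose and 3.7% fell in bzip59, and 3.42% rose and 6.5% fell in Col-0. Of these other genes, limma called 0 for bzip59 against Col-0 in either light, beside 0.0254% of all tested genes in white light and 0.0406% in shade. In white light 5 of the 44, 11.4%, had an unadjusted p under 0.05, beside 15.5% of all tested genes. In shade 0 did, beside 2.71% of all tested genes.

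FRO7 (AT5G49740), the ferric reductase of chloroplasts, fell in both genotypes. It had 14.64, 11.90 and 14.93 TPM in bzip59 shade, against 39.21, 32.05 and 46.46 TPM in bzip59 white light, a log2 change of -1.43 (SE 0.19, limma adjusted p = 0.000862). It had 13.55, 10.13 and 8.66 TPM in shaded Col-0, against 46.15, 58.32 and 39.78 TPM in Col-0 white light, a log2 change of -2.06 (SE 0.19, limma adjusted p = 7.34e-05). No shade library reached a white light library, and the calls held in all 24 alternatives in each genotype.

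FRO6 (AT5G49730), the reductase gene next to FRO7 and a close relative expressed in shoots, had 30.60, 20.57 and 29.61 TPM in bzip59 shade, against 42.24, 28.79 and 45.80 TPM in bzip59 white light. It had 23.29, 25.34 and 23.18 TPM in shaded Col-0, against 55.79, 67.78 and 65.39 TPM in Col-0 white light. FRO6 fell in Col-0 (-1.36, SE 0.19, limma adjusted p = 0.000886), while bzip59 had -0.51 (SE 0.19, limma adjusted p = 0.109) with overlapping groups. In bzip59 the gene was called in 4 of 24 alternatives, with TMM factors (-0.65, adjusted p = 0.0436), with the length trend removed (-0.72, 0.0221), without bzip59 white light 2 (-0.71, 0.0279) and without both white light libraries numbered 2 (-0.71, 0.0294). The difference between the shade effects was 0.85 (95% interval 0.27 to 1.42, unadjusted p = 0.00794, limma adjusted p = 0.577) and was not called. The pair could share reads, since the sources do not state how such reads were assigned. For the root reductase gene FRO2 the estimates were -0.04 in bzip59 (95% interval -0.66 to 0.57) and 0.09 in Col-0 (95% interval -0.53 to 0.71). The bzip59 interval of FRO2 includes the FRO6 estimate of -0.51, and no difference between genes was tested.

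NAS1 (AT5G04950), which encodes an enzyme making the iron chelator nicotianamine, fell in both genotypes. It had 44.21, 52.14 and 63.43 TPM in bzip59 shade, against 117.75, 102.87 and 126.29 TPM in bzip59 white light, a log2 change of -1.11 (SE 0.19, limma adjusted p = 0.00317). It had 61.17, 44.30 and 53.67 TPM in shaded Col-0, against 120.28, 77.32 and 98.35 TPM in Col-0 white light, a log2 change of -0.87 (SE 0.19, limma adjusted p = 0.0113). The groups did not overlap in either genotype. The call in Col-0 was lost without Col-0 shade 2 (adjusted p = 0.0561) and when the 2 groups alone were fitted (0.056).

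BHLH34 (AT3G23210), a group IVc bHLH factor that activates the group Ib genes, also fell in both genotypes. Its values were 6.33, 6.83 and 6.78 TPM in bzip59 shade, against 11.32, 10.48 and 9.88 TPM in bzip59 white light, and 6.86, 6.31 and 5.65 TPM in shaded Col-0, against 11.59, 13.64 and 10.69 TPM in Col-0 white light. The log2 changes were -0.60 (SE 0.12, limma adjusted p = 0.0103) in bzip59 and -0.83 (SE 0.12, limma adjusted p = 0.00126) in Col-0. BHLH34, FRO7 and NAS1 were the 3 genes called as falling in both genotypes, out of 5 in bzip59 and 8 in Col-0. This split rests on the threshold, since NAS4, called in Col-0, just missed it in bzip59 (limma adjusted p = 0.0509). The overlap was not set against that of all tested genes. The call of BHLH34 in bzip59 was lost without bzip59 shade 1 (adjusted p = 0.0555).

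BHLH121 (AT3G19860), a partner of the group IVc factors, rose in bzip59. It had 47.86, 38.96 and 46.01 TPM in bzip59 shade, against 26.35, 25.17 and 26.44 TPM in bzip59 white light, a log2 change of 0.74 (SE 0.11, limma adjusted p = 0.00139). In the wild type it had 38.54, 44.88 and 43.92 TPM in shade, against 34.79, 33.72 and 36.59 TPM in white light, a log2 change of 0.27 (SE 0.11, limma adjusted p = 0.163). Shade was the higher without overlap in both genotypes, and the difference between the shade effects was 0.47 (95% interval 0.14 to 0.81, unadjusted p = 0.00978, limma adjusted p = 0.584), which was not called.

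The other called genes passed the threshold in 1 genotype each, and their estimates had the same sign in the other genotype. IREG1, an iron exporter of the vascular tissue, fell in Col-0 to 3.19, 5.31 and 4.18 TPM in shade, against 8.53, 7.75 and 9.01 TPM in white light (-0.87, SE 0.15, limma adjusted p = 0.00395), and in bzip59 it had -0.39 (limma adjusted p = 0.134), with shade lower without overlap. MYB10, a transcription factor of the iron deficiency response, rose in Col-0 to 4.26, 6.99 and 7.49 TPM in shade, against 2.49, 2.84 and 3.0 TPM in white light (0.91, SE 0.22, limma adjusted p = 0.0221), and its call held in 17 of 23 alternatives but not without Col-0 shade 2, Col-0 shade 3, Col-0 white light 1 or Col-0 white light 2 (adjusted p = 0.0907, 0.111, 0.0755 and 0.0627 in that order). In bzip59 MYB10 had 4.66, 3.51 and 6.32 TPM in shade, against 1.94, 2.82 and 2.58 TPM in white light, without overlap, and its 0.74 (limma adjusted p = 0.056) was called in 5 of 23 alternatives. In bzip59 YSL3, a transporter of iron bound to nicotianamine, rose by 0.61 (SE 0.13, limma adjusted p = 0.0141) and ZIF1, a vacuolar nicotianamine transporter, by 0.52 (SE 0.13, limma adjusted p = 0.0242). Neither held without bzip59 shade 1 (adjusted p = 0.0714 for YSL3 and 0.111 for ZIF1) or bzip59 shade 3 (0.0554 for YSL3 and 0.07 for ZIF1), and ZIF1 did not without bzip59 white light 2 (0.0535). With the trend over gene length removed YSL3 had an adjusted p of 0.0538 and ZIF1 had 0.26 (0.338), and ZIF1 was not called with TMM factors (0.39, 0.0825) or quantile normalization (0.38, 0.0951). With the 2 groups alone neither was called (0.0599 for YSL3 and 0.0581 for ZIF1). In Col-0 YSL3 had 0.30 (limma adjusted p = 0.199) and ZIF1 0.33 (limma adjusted p = 0.138), each with shade higher without overlap. In bzip59, NAS3, another nicotianamine synthase gene, fell by 0.88 and BHLH115, a group IVc factor, fell by 0.33 on the log2 scale. In Col-0, NAS4 fell by 0.89, YSL2 by 0.65 and PYE, a bHLH repressor in the iron network, by 0.65, these 3 being named after their values were seen. NAS4 had nearly the same estimate in bzip59, -0.88 (limma adjusted p = 0.0509), where shade was lower without overlap and 11 of 24 alternatives called it, TMM factors (0.0162) and quantile normalization (0.0139) among them. Their limma adjusted p lay close to the threshold for NAS3 (0.0468), BHLH115 (0.0439), NAS4 (0.0486) and PYE (0.0386), whose calls held in 10 of 23, 12 of 24, 9 of 24 and 11 of 24 alternatives in that order and were lost when any of 8 or more single libraries was left out. YSL2 (0.0234) held in 19 of 24 and not without Col-0 shade 2 (0.102), Col-0 shade 3 (0.0887), Col-0 white light 1 (0.0525) or Col-0 white light 2 (0.0956).

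For the difference between the shade effects limma called 0 of these 44 genes, and 8 of them, 18.2%, had an unadjusted p under 0.05, beside 8.01% of all tested genes. This share too comes from a list chosen with earlier results of these data known. The 5 falling genes of bzip59 and the 8 of Col-0 belonged to regulation, iron reduction and transport. The 3 ferritin genes were not among them. Beside 3.7% of all tested genes falling in bzip59 and 6.5% in Col-0, 3 genes are too few to set ferritins apart.

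**Figure D4:**
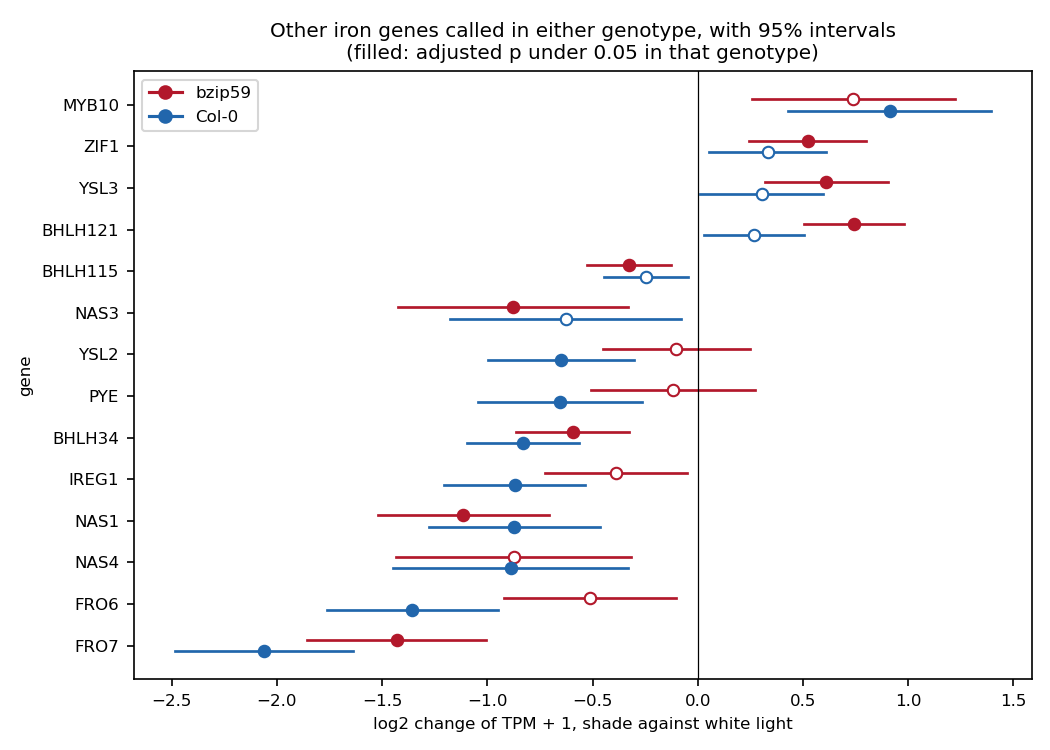
Log2 change of TPM + 1 in shade against white light for the 14 other iron genes called in at least 1 genotype, with 95% intervals and bzip59 drawn above Col-0, where filled points have an adjusted p under 0.05. FRO7 is the lowest in both genotypes, at -1.43 in bzip59 and -2.06 in Col-0, and BHLH121 is the highest filled point of bzip59 at 0.74.

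Some of the 10 values carry an uncertainty of assignment. In RefSeq TAIR10.1, BHLH38 overlaps AT3G56960, BHLH101 overlaps AT5G04140, IMA3 overlaps AT2G30760 and AT2G30770, and FER1 overlaps AT5G01595. The strandedness of the libraries was not stated, so reads of overlapping genes cannot be told apart. For most of the 10 a single transcript carried the value, with 99.5% of FRO2, 98.3% of IMA3, 98.2% of IRT1 and 84.3% of BHLH100 in 1 transcript each.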

How the data were processed

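RNA was taken from whole seedlings in 4 groups of 3 libraries. The submitters' processing notes name fastp, cutadapt, HISAT2, DESeq2 and the build TAIR10, without versions. How TPM were computed is not given in the sources used here. For this series the authors deposited TPM per transcript, per the file headers (54013 transcripts, column sums 937165 to 955765), and 4 group mean columns that equalled the library means within 3.3e-06 were not used. TPM were summed to 32833 genes, of which 32548 matched RefSeq (TAIR10.1), used for names, neighbours and lengths only; the IMA names came with the choice of genes. No coordinates or sequences are given.

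limma 3.58.1 (R 4.3.3) with an intensity trend was fitted to log2(TPM + 1), with 4 group means and 5 contrasts, on genes whose mean reached 1 TPM, and was checked on simulated data. Reading, summing and plotting used Python 3.11.15, numpy 2.4.6, pandas 2.3.3 and matplotlib 3.10.9. The 10 genes, the iron list and the marker lists were chosen with earlier results of these data known. Of the 50 other iron genes, up to 5 called genes per comparison and direction were named by smallest p, and the 5 nearest profiles were named for FER1, IMA1 and BHLH39. Alternatives were the pseudocount, filter, TMM and quantile scaling, no trend, 2 groups alone, a replicate block and left-out libraries; removing a trend over gene length was added after seeing the data.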

Additional observations from a re-analysis of the deposited data

How the results depend on the processing

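Over 50 combinations of gene and comparison and 1165 alternative values, 1083 kept their direction and side of the threshold, 70 changed sign without a call on either side, 8 gained a call, 4 lost one, and no called value changed sign. The number of the 10 genes called for shade in Col-0, 1 as reported, was 2 with TMM factors, quantile normalization, the length trend removed, or without Col-0 shade 1 and bzip59 shade 2 together, 0 with the 2 groups alone, and 0 to 2 when single libraries were left out (2 without Col-0 shade 1, 0 without any of Col-0 white light 1, Col-0 shade 2 and Col-0 shade 3). For shade in bzip59, 0 as reported, it was 1 without Col-0 shade 1 and bzip59 shade 2 together and 0 to 1 with single libraries left out. It stayed at 0 for both genotype comparisons and for the difference between the shade effects in every alternative run.

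Of the 44 other iron genes, 9 were called in Col-0 as reported, 4 with the 2 groups alone and 4 to 14 with single libraries left out (14 without Col-0 shade 1, 4 without Col-0 shade 2, 5 without any of Col-0 white light 1, Col-0 white light 2 and Col-0 shade 3). In bzip59, 8 were called as reported, 5 with the 2 groups alone and 3 to 9 with single libraries left out (3 without bzip59 shade 1, 4 without bzip59 shade 3).

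Over all tested genes the called numbers were 976 to 2424 for shade in Col-0, 871 to 3305 for shade in bzip59, 3 to 14 for genotype in white light, 5 to 9 for genotype in shade and 0 to 4 for the difference between the shade effects with single libraries left out. With the 2 groups alone they were 1165, 1191, 1 and 2 for the first 4. Genotype in white light gave 8 with no filter and 9 without Col-0 shade 1 and bzip59 shade 2; genotype in shade gave 4 with a filter at 5 TPM; and the difference between the shade effects gave 2 with no filter, 7 without Col-0 shade 1 and bzip59 shade 2, and 2 without the white light libraries numbered 2. The cause was not tested. Deviations from the group means, over all tested genes, had correlations of -0.15 to 0.25 between same-numbered libraries of different groups (18 pairs). Differently numbered libraries had -0.28 to 0.16 (36 pairs). These values cannot tell whether libraries of the same number shared a harvest or batch, and the labels do not say. With the replicate block, 1 of the 10 genes was called for shade in Col-0 and 0 in the other comparisons, with 1944, 2220, 4, 8 and 0 calls over all genes. The depth per library is unknown, and 3 libraries a group leave wide intervals for genes of a few TPM.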
